A study of Mus musculus with 6 samples.

Results

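The 9 genes described here encode transcription factors that hold the identity of the pancreatic beta cell: Pdx1, Mafa, Neurod1, Nkx6-1, Nkx2-2, Isl1, Pax6, Rfx6 and Foxa2. They were taken by symbol from a table of 22298 genes, and each symbol matched 1 row. RNA was sequenced from MIN6, an insulin-secreting mouse insulinoma line, in 3 samples of a control group and 3 of a chronic epinephrine group. The study describes chronic epinephrine as 100 nM over 3 days, with 2 further days of withdrawal, and the day of RNA collection is not given in the sources used here. Ins2, the main insulin gene of the mouse, was abundant in every sample (24524 to 37104 CPM, defined below). Both groups are the same insulinoma line. The study's methods speak of biological replicates and independent samples in general, and the labels only number these samples, so whether each was a separate culture is not given for the RNA-seq and p-values measure the spread between these samples.

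These factors bind DNA and switch on the genes that a beta cell needs to make, store and release insulin, and they also bind one another's genes, so that each helps to keep the others expressed. Several act earlier as well, when endocrine cells arise in the embryonic pancreas. In adult beta cells, loss of such factors is known to lower insulin gene transcription and glucose sensing, and in some cases to let genes of other islet cell types be expressed.

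With all 6 samples, Pax6 was the only member whose change passed the test, and it fell by 30.7% after chronic epinephrine. The log2 fold change of epinephrine over control was below 0 for all 9 members, beside 6436 of all 12747 genes tested. Its median was -0.26 over the members against -0.00 over all genes tested. Without control 1 it was below 0 for 7 of 9 members, beside 6438 of 12966 genes, with Mafa at 0.03 and Foxa2 at 0.10. Being called here means a Benjamini-Hochberg false discovery rate (FDR) under 0.05 over all genes tested, in the quasi-likelihood test of edgeR. By that rule 1 of 9 members was lower and 0 of 9 were higher. Of all genes tested, 0.612% were called lower and 2.02% higher. An unadjusted edgeR p under 0.05 was found for 4 of 9 members, beside 2179 of all 12747 genes tested. When control 1 was left out, 5 of 9 members were called lower (Pax6, Isl1, Rfx6, Pdx1 and Nkx6-1) and none higher, beside 9.46% of 12966 genes lower and 12.1% higher. Mafa and Foxa2 were not called in any of the 17 alternatives, and neither was Neurod1. In RNA from a whole culture, fewer cells of a type and less RNA per cell cannot be told apart.

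Levels of different genes were compared as FPKM, the authors' fragments per kilobase of transcript, scaled to sequencing depth, because it is scaled to transcript length. In the control group the order from high to low was Pax6, Pdx1, Mafa, Isl1, Neurod1, Nkx6-1, Nkx2-2, Foxa2 and Rfx6. Pax6 had a mean of 446 FPKM ± 21.2 (SD, n = 3) and stood at rank 97 among the 22298 genes. Rfx6, at the low end, had 24.7 FPKM ± 3.48 (SD, n = 3) and rank 3133. Between these ends, mean control FPKM was 286 for Pdx1, 276 for Mafa, 129 for Isl1, 98.7 for Neurod1, 97.5 for Nkx6-1, 83.2 for Nkx2-2 and 46.3 for Foxa2. The neighbours Pdx1 and Mafa, Neurod1 and Nkx6-1, and Nkx6-1 and Nkx2-2 overlapped in the control samples, so their order is not set beyond the spread. After epinephrine Mafa stood before Pdx1 (250.1 to 252 FPKM against 209.6 to 222) and Nkx2-2 before Nkx6-1 (68.2 to 71.7 against 62.6 to 68.1), and no neighbours overlapped, the latter pair by a narrow margin.

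Summed over the 9 members, FPKM was 1631, 1423 and 1410 in controls 1, 2 and 3 and 1139, 1192 and 1167 in the epinephrine samples. Every epinephrine sample was below every control sample in this sum. Pax6 made up 30.1% ± 3.05 (SD, n = 3) of the sum in controls and 26.0% ± 0.447 (SD, n = 3) after epinephrine, with no overlap. The share of Mafa was higher after epinephrine, at 21.5% against 18.5%, and so was that of Foxa2, at 3.84% against 3.10%, both without overlap. Shares of the other 6 members overlapped between the groups.

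**Figure D1:**
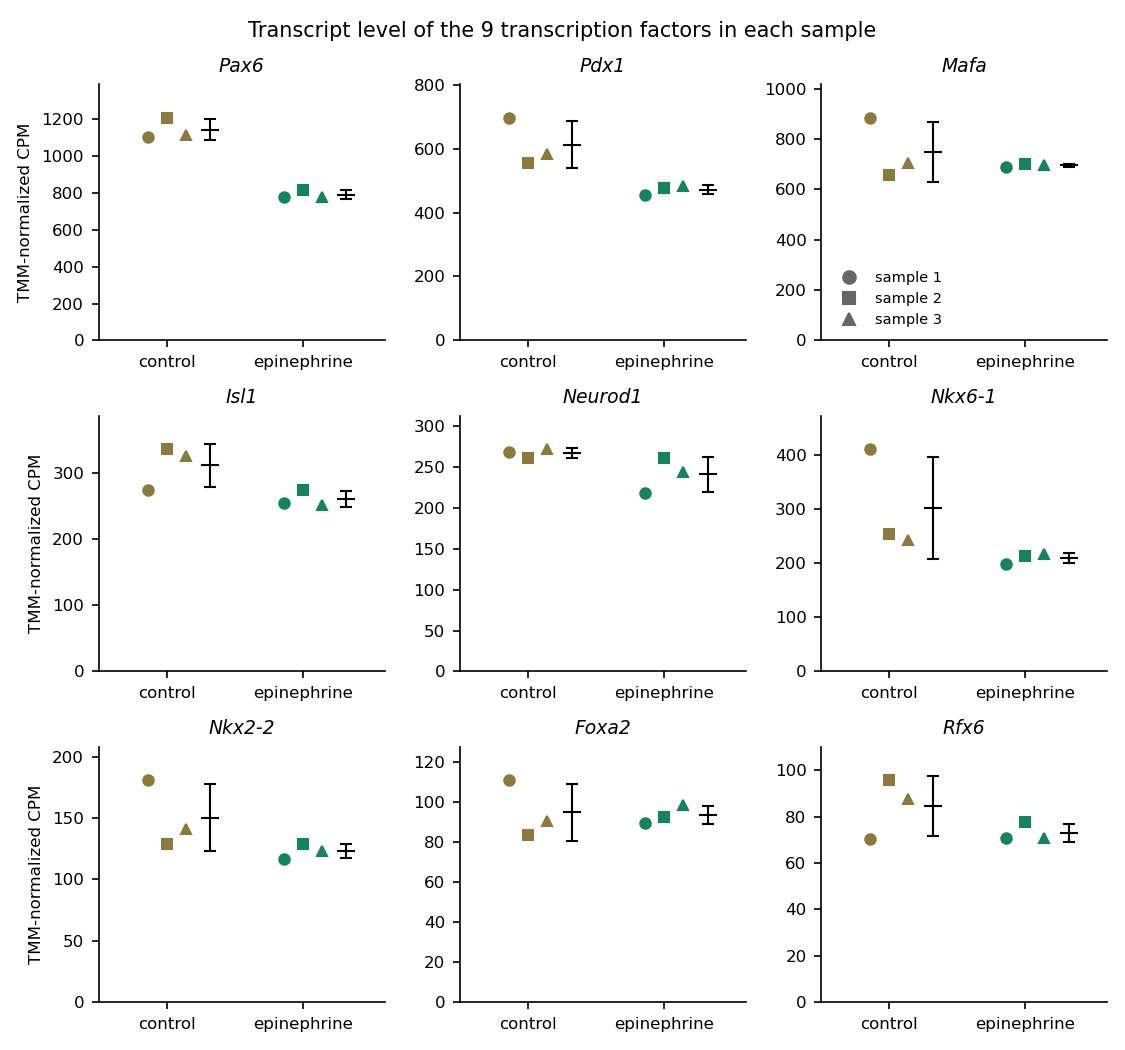
TMM-normalized CPM, scaled counts (vertical axes from 0) of each member in control samples and epinephrine samples, in the order of their control FPKM; symbols mark sample numbers, and the bar beside them is the mean ± SD (n = 3). All Pax6 values after epinephrine (777 to 819) sit below all control values (1106 to 1208), and control 1 stands above controls 2 and 3 for Nkx6-1, Mafa, Pdx1, Nkx2-2 and Foxa2.

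Values within 1 gene are given below as CPM, the rounded counts scaled to library size with the TMM factors of edgeR. Epinephrine samples lay below all controls, without overlap, for Pdx1, Nkx6-1, Nkx2-2, Neurod1 and Pax6, which is 5 of 9 members, beside 13.0% of all genes tested. By exact permutation (two-sided), p was 0.1 for each of these 5, the smallest that 3 against 3 samples allow. For Isl1 it gave 0.2, for Rfx6 0.4, for Mafa 0.7 and for Foxa2 0.9. In FPKM the groups overlapped for Nkx2-2, at 71.6 in control 2 and 71.7 in epinephrine 2.

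Pax6 encodes a paired-box and homeodomain protein needed for islet hormone gene expression, and lies at chr2:105668900-105697364 on the plus strand of GRCm38. Its CPM was 1106, 1208 and 1114 in controls 1 to 3 and 777, 819 and 779 in epinephrine samples 1 to 3. The groups were far apart and control 1 was the lowest control, close to control 3. The fitted log2 fold change was -0.53 (SE 0.08, 95% confidence interval -0.72 to -0.34, FDR 0.0136). Without control 1 it was -0.55 (SE 0.05, FDR 1.74e-09). FDR ran from 3.48e-10 to 0.146 over the 17 alternatives, of which 12 were under 0.05. The call was lost in the other 5, which include the fits without control 2 (FDR 0.0633) and without epinephrine 1, 2 or 3 (FDR 0.146, 0.0954 and 0.134) and, given at the end, a replicate block, at log2 fold changes of -0.49 to -0.55.

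Isl1 encodes a LIM homeodomain protein of all islet endocrine cells that acts on the insulin gene and on Mafa, and lies at chr13:116298281-116309689 on the minus strand. CPM was 274, 336 and 325 in the controls and 255, 274 and 251 after epinephrine. Control 1 was as low as epinephrine 2, so the groups overlapped, while controls 2 and 3 were above every epinephrine sample. With all samples the log2 fold change was -0.26 (SE 0.10, FDR 0.231). Without control 1 Isl1 was downregulated, at -0.34 on the log2 scale (SE 0.05, FDR 1.1e-05). Its FDR ran from 1.1e-05 to 0.570 over the alternatives.

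Rfx6 encodes a winged-helix factor that directs islet cell development and keeps beta-cell genes on, and lies at chr10:51677756-51730432 on the plus strand. CPM was 70.4, 95.8 and 87.4 in the controls and 70.9, 77.5 and 70.7 after epinephrine. As for Isl1, control 1 was at the level of the epinephrine samples and controls 2 and 3 were above all of them. With all samples the log2 fold change of Rfx6 was -0.21 (SE 0.12, FDR 0.416). It was -0.33 (SE 0.06, FDR 0.000242) without control 1, where Rfx6 was called lower, and FDR ran up to 0.709 over the alternatives.

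The sequences just before the transcription start of these 3 genes are shown. They were the members whose fall after epinephrine was largest once control 1 was left out. Foxa2, like Mafa and Neurod1 a member never called, is also shown. Each is the 250 bases before the start that lies furthest upstream in RefSeq (GRCm38.p6), 5′ to 3′, with capitals on the motifs searched. The motifs, sought on both strands, were TGACGTCA (the cAMP response element), TAAT (the core bound by many homeodomain proteins), CANNTG (the E-box of NEUROD1 and other helix-loop-helix proteins), TGTTTAC (forkhead), GTTGCC (RFX) and TGCTGA (MAF), and no capitals of different motifs overlap.
Pax6, chr2:105668646-105668895, plus strand: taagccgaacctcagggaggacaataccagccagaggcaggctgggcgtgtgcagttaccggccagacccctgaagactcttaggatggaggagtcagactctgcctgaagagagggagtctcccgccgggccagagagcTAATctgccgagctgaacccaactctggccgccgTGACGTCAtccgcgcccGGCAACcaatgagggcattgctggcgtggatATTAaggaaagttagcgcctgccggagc
Isl1, chr13:116309689-116309938, minus strand: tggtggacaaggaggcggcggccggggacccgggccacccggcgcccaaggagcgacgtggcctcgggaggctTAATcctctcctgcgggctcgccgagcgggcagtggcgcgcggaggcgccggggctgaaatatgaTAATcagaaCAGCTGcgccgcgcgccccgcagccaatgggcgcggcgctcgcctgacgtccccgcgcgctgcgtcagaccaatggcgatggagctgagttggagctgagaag
Rfx6, chr10:51685268-51685517, plus strand: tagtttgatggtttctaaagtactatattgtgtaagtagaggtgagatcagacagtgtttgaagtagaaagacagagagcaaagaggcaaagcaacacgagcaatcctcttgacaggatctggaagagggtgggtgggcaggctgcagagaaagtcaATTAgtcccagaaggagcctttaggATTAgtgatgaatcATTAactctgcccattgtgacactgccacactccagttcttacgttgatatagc
Foxa2, chr2:148046970-148047219, minus strand: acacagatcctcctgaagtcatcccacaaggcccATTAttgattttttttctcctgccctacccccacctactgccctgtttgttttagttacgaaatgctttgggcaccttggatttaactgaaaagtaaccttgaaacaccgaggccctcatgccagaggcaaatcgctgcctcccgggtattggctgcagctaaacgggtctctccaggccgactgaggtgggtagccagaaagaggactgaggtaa

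Before Pax6 there was 1 TGACGTCA, starting 76 bases before the start, with TAAT at 110 and 28 bases and an RFX motif at 59 bases. TGACGTCA was in 1.6% of 27025 promoter windows of the same length, TAAT in 55.4% and the RFX motif in 10.5%. Isl1 had TAAT at 177 and 112 bases and an E-box at 103 bases, a motif found in 66.1% of windows. Rfx6 had 3 TAAT, at 93, 68 and 54 bases, and Foxa2 had 1, at 216 bases. The forkhead motif, in 3.06% of all windows, and the MAF motif, in 15.8%, were in none of these 4 windows. GENCODE starts Rfx6 upstream of its window, which lies in an intron of that longer model. RefSeq gives 2 starts for Pax6 and 3 for Foxa2, and which start MIN6 uses was not measured. The windows are a description of sequence, and no binding was measured. Because the genes shown were picked by their results in these data, motif differences between them test nothing. Windows of Pdx1, Nkx6-1, Nkx2-2 and Neurod1 had 53 to 250 bases in GENCODE exons and are not shown, while that of Isl1 had 1 such base and the other 3 shown had 0, and Mafa had no entry.

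Pdx1 encodes the homeodomain protein that specifies the pancreas and later activates the insulin gene, and lies at chr5:147269959-147275848 on the plus strand. CPM was 696, 556 and 584 in the controls and 455, 476 and 484 after epinephrine. Control 1 was the highest of the 6, and controls 2 and 3 were also above every epinephrine sample. With all samples Pdx1 had a log2 fold change of -0.37 (SE 0.10, 95% confidence interval -0.61 to -0.14, FDR 0.104). Pdx1 was called lower without control 1 (log2 fold change -0.27, SE 0.05, FDR 0.00014) and by the Wald test of DESeq2 with all samples (-0.38, FDR 0.022), and FDR ran from 2.13e-06 to 0.409. DESeq2 called 2 of 9 members lower, Pax6 and Pdx1, beside 2.05% of genes.

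Mafa encodes a basic leucine zipper protein that binds the insulin promoter and marks mature beta cells, and lies at chr15:75745490-75748228 on the minus strand. CPM was 884, 659 and 704 in the controls and 689, 701 and 695 after epinephrine. The epinephrine values sat between those of controls 2 and 3, and control 1 was the highest of the 6 samples. Its log2 fold change was -0.11 (SE 0.12, 95% confidence interval -0.37 to 0.16, FDR 0.686), and without control 1 it was 0.03 (interval -0.07 to 0.13, FDR 0.744). No change in Mafa was detectable, and FDR ran from 0.418 to 0.847 over the alternatives.

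Neurod1 encodes a helix-loop-helix partner of the insulin gene activators and lies at chr2:79452521-79456751 on the minus strand. CPM was 268, 261 and 272 in the controls and 218, 260.3 and 244 after epinephrine. Epinephrine 2 was just below the lowest control and epinephrine 1 was furthest below. Neurod1 had a log2 fold change of -0.15 (SE 0.09, 95% confidence interval -0.36 to 0.06, FDR 0.444). It was also -0.15 (SE 0.06, FDR 0.0759) without control 1, -0.08 without epinephrine 1 (FDR 0.820) and -0.21 without epinephrine 2 (FDR 0.529). In GENCODE 9.66% of its 50-base windows also occur in Cerkl, whose exons overlap it on the same strand, or in Gm26755 on the other strand. Cerkl had 64 to 119 expected counts per sample and Neurod1 3672 to 4645, and Gm26755 was not analysed here.

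Nkx6-1 encodes an NK homeodomain protein that represses genes of other islet cells and supports insulin secretion, and lies at chr5:101658139-101664996 on the minus strand. CPM was 411, 253 and 243 in the controls and 198, 213 and 216 after epinephrine. Control 1 stood far above all other samples, and controls 2 and 3 remained above the epinephrine samples. With all samples Nkx6-1 stood at -0.53 on the log2 scale (SE 0.19, FDR 0.197), as large as that of Pax6 but with a wider 95% confidence interval, -0.97 to -0.10. Without control 1 Nkx6-1 was downregulated at -0.25 (SE 0.05, FDR 0.000781), and FDR over the alternatives ran from 1.43e-05 to 0.515.

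Nkx2-2 encodes another NK homeodomain protein, needed for beta cells to form and to keep their identity, and lies at chr2:147177546-147194243 on the minus strand. CPM was 181, 129 and 141 in the controls and 117, 129 and 123 after epinephrine. Control 1 was again the highest, and control 2 and epinephrine 2 were nearly equal. With all samples its log2 fold change was -0.29 (SE 0.13, FDR 0.300). Without control 1 it was -0.13 (SE 0.06, FDR 0.1), so it was called in neither. FDR ran from 0.00983 to 0.642 over the alternatives. Of its 50-base windows 8.04% also occur in Nkx2-2os, a transcript of the opposite strand that was not analysed here, and whether counting used strand is not given in the sources used here.

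Foxa2 encodes a forkhead factor that opens chromatin in endoderm and acts upstream of Pdx1, and lies at chr2:148042877-148046969 on the minus strand. CPM was 111, 83.3 and 90.5 in the controls and 89.4, 92.5 and 98.6 after epinephrine. The groups overlapped, with control 1 the highest sample and control 2 the lowest. Foxa2 had a log2 fold change of -0.02 (SE 0.12, 95% confidence interval -0.28 to 0.24, FDR 0.947), and 0.10 (interval -0.02 to 0.23, FDR 0.232) without control 1. FDR ran from 0.232 to 0.985 over the alternatives.

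**Figure D2:**
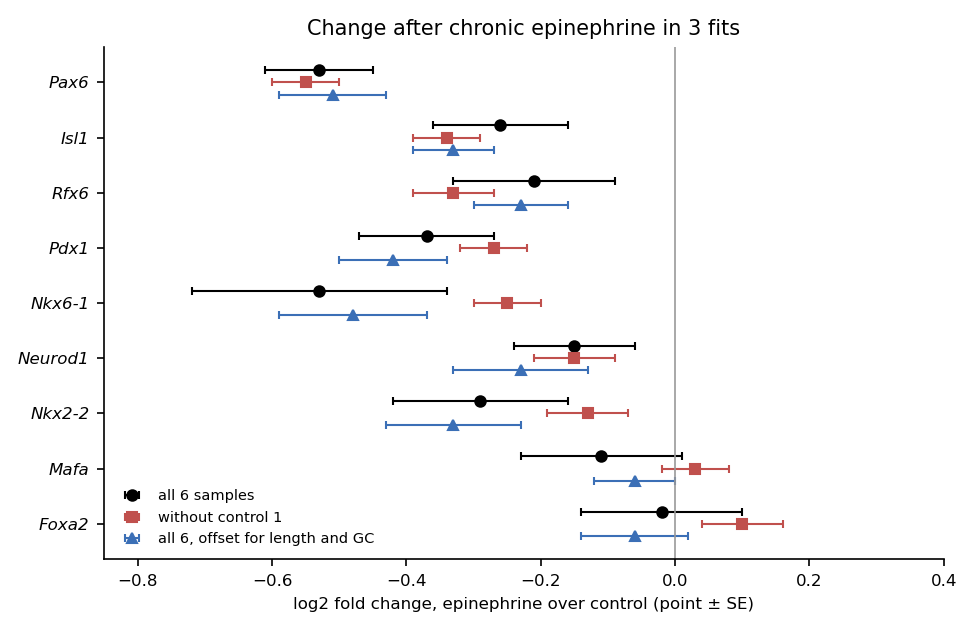
Log2 fold change of epinephrine over control (horizontal axis, point ± SE) for each member in 3 edgeR fits: all 6 samples (3 against 3), without control 1 (2 against 3), and all 6 samples corrected by sample for GC content and transcript length. Pax6 stayed between -0.55 and -0.51 in the 3 fits, while Nkx6-1 was -0.53, -0.25 and -0.48.

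Control 1 stood apart from controls 2 and 3 in a way that varied with transcript GC content among the members. Its log2 CPM minus the mean of controls 2 and 3 was 0.73 for Nkx6-1, 0.42 for Nkx2-2, 0.38 for Mafa, 0.35 for Foxa2 and 0.29 for Pdx1. These 5 members have transcripts of 55.7% to 65.0% GC, above the median of 49.6% over genes tested. The difference was 0.01 for Neurod1, -0.07 for Pax6, -0.27 for Isl1 and -0.38 for Rfx6, whose transcripts have 43.6% to 49.3% GC. Across the 9 members it correlated with GC content at r = 0.83, and across 12742 genes at r = 0.40, as a description across genes, which are not independent replicates. Over all genes, log2 CPM of control 1 correlated with the other samples at 0.9738 to 0.9785, against 0.9931 between controls 2 and 3.

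**Figure D3:**
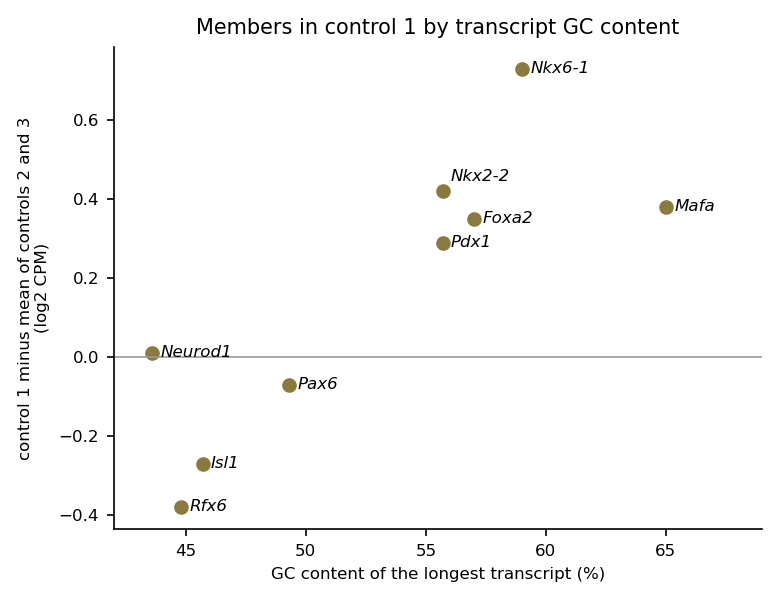
Difference in log2 CPM between control 1 and the mean of controls 2 and 3 (vertical axis) against the GC content of the longest transcript (horizontal axis, %), 1 point per member. The 5 members of 55.7% GC or more lie at 0.29 or above, and the other 4 lie at 0.01 or below.

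A correction of each sample for GC content and transcript length, entered as an offset, kept all 6 samples and was chosen once the data had been seen. With it, 4 of 9 members were called lower, beside 4.92% of genes: Pax6 (log2 fold change -0.51, FDR 0.00276), Isl1 (-0.33, FDR 0.00743), Pdx1 (-0.42, FDR 0.00815) and Nkx6-1 (-0.48, FDR 0.0252). With the offset and without control 1, 6 of 9 were called lower, the 5 named above and Nkx2-2 (-0.18, FDR 0.00983), beside 11.2% of genes.

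Transcripts of other cell types were also counted. The 20 hepatocyte markers summed to 98.5 and 239 CPM in controls 2 and 3 and to 13.3 to 15.1 in the other 4 samples, and Alb was at 33.9 and 82.3 CPM in those controls and at most 0.448 elsewhere. The fits without control 1 rest on these 2 controls, and 13 of the 15 hepatocyte markers tested there were called lower. Exocrine markers summed to 233 to 271 CPM in controls and 335 to 341 after epinephrine, with Krt7 as 69.4% of the sum and 6 of 16 at 0 in every sample. Fibroblast markers summed to 24.1, 1.6 and 8.57 CPM in controls 1 to 3 and to 19.2, 12.2 and 1.06 after epinephrine. Leukocyte markers summed to 1.14 to 3.3 CPM in controls and 3.31 to 4.33 after epinephrine. Cd68, 53.9% of the leukocyte sum, was called higher (log2 fold change 2.39, FDR 0.00906). Csf1r, the other of the 2 leukocyte markers tested, was not called (-0.32, FDR 0.786). In DESeq2 the log2 fold change was below 0 for 7 of 10 leukocyte markers and above 0 for 3, with a median of -0.81. Only 2 of these 10 had enough counts to be tested by edgeR, so that median rests mostly on genes with few counts. The part of transcripts of other cell types in the members' values was not tested.

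Across the 6 samples each member's log2 CPM was set beside that of the other 8, as a description in which the samples share control 1 and the treatment. Nkx6-1 and Nkx2-2 were the closest pair (Pearson r = 0.964), and Isl1 and Rfx6 followed (0.953). Pdx1 was closest to Nkx6-1 (0.946), Mafa to Nkx2-2 (0.914), Foxa2 to Mafa (0.903), Pax6 to Isl1 (0.858) and Neurod1 to Pax6 (0.724). Foxa2 and Rfx6 were least alike (-0.717). Among 76 tested genes of the other lists, Tshz1 (0.956), Ucn3 (0.952) and Ffar1 (0.952) were closest to the mean of the members.

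Other regulators of beta cells had a median log2 fold change of -0.27, which was -0.17 without control 1 and -0.35 without control 2. Of 18 tested, 1 was called lower and 0 higher: Mnx1, a homeodomain factor of beta-cell fate, at 41.7, 42.9 and 40.9 CPM in controls and 28.7, 32.2 and 32.1 after epinephrine (log2 fold change -0.43, FDR 0.0413, called in 9 of 17 alternatives with FDR from 2.15e-05 to 0.260). The 3 of highest level were Insm1, a zinc finger factor of endocrine cells (94.1 FPKM in controls and 79.4 after epinephrine), Tle3, a corepressor (61.2 and 46.5), and Tshz1 (49.4 and 34.1), and none of them was called with all samples. Without control 1, 7 of 19 were called lower, among them Tshz1 (-0.35, FDR 1.02e-05) and Tle3 (-0.17, FDR 0.0177), and 1 higher. With the offset and all samples Tshz1 (FDR 0.00227) and Tle3 (FDR 0.0221) were also called lower.

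Regulators of progenitors and of other islet cells were at low levels. Neurog3 and Ptf1a, which specify endocrine and acinar progenitors, were at 0 counts in every sample, where 3 counts would be 0.168 to 0.198 CPM. None of 6 progenitor regulators tested and none of 3 regulators of other islet cells was called with all samples, by edgeR or by DESeq2, and 3 and 0 of them had an unadjusted edgeR p under 0.05. The highest means were those of Hes1 (5.10 FPKM in controls and 5.61 after epinephrine), Myc (4.74 and 6.46) and Klf4 (3.09 and 4.19) among the progenitor regulators, and Irx1 (1.48 and 2.02), Irx2 (0.907 and 0.720) and Fev (0.687 and 0.6) among the others. Without control 1 Myc (0.60, FDR 0.000358) and Klf4 (0.36, FDR 0.0333) were called higher. Of the hormones of other islet cells Gcg, which encodes glucagon, rose from 175, 195 and 212 CPM in controls to 377, 396 and 409 after epinephrine (log2 fold change 1.02, FDR 0.00199), while Sst, Ppy, Pyy and Ghrl were near 1 CPM or below.

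Genes of beta-cell function, several of them known targets of the members, had a median log2 fold change of -0.19, and 5 of 20 were called lower and 1 higher. Nnat, which aids signal peptide cleavage of preproinsulin, had the largest fall (-0.85, FDR 0.00199), and was called in all 17 alternatives. Slc2a2, the glucose transporter, was lower at -0.76 (FDR 0.00434), Ucn3, a peptide of mature beta cells, at -0.74 (FDR 0.00868), Sytl4, a granule protein, at -0.56 (FDR 0.0181) and Ins1 at -0.50 (FDR 0.0152). Cox6a2, a subunit of respiratory complex IV, was higher at 1.13 (FDR 0.0333). Of the 17 alternatives, Slc2a2 and Ucn3 were each called in 14, Sytl4 and Cox6a2 each in 11 and Ins1 in 9, and of the 6 fits that leave out 1 sample, Slc2a2 and Ucn3 were each called in 3 and Sytl4, Cox6a2 and Ins1 each in 1. Their highest FDR was 0.0577 for Slc2a2, 0.0818 for Ucn3, 0.148 for Sytl4, 0.198 for Cox6a2 and 0.154 for Ins1. Ins2 was at 24524, 34355 and 37104 CPM in controls and 31279, 33051 and 32541 after epinephrine, with a log2 fold change of 0.01 (FDR 0.974) that changed sign without control 1 (-0.15, FDR 0.0205). Iapp and G6pc2 were, with Ins2, the 3 of highest mean FPKM over all 6 samples, and neither was called with all samples. Without control 1, 11 of 20 were called lower and 2 higher, and G6pc2 was among the lower ones (-0.26, FDR 6.4e-05), as it was with the offset and all samples (-0.26, FDR 0.0176).

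Disallowed genes, which beta cells normally keep low, had a median log2 fold change of 0.29, which was 0.17 without control 2, 0.15 with limma on log2(FPKM + 1), 0.10 with no filter and 0.09 with DESeq2. Of 15 tested, 1 was called, Slc16a1, a lactate and pyruvate transporter, at 19.0, 24.5 and 25.6 CPM in controls and 37.5, 33.4 and 35.0 after epinephrine (0.62, FDR 0.0421). It was called in 8 of the 17 alternatives, with FDR from 1.29e-05 to 0.245. Ldha, lactate dehydrogenase, was at 588 FPKM in controls and 649.8 after epinephrine and was not called with all samples, nor were Oat (49.2 and 59.5) and Acot7 (7.98 and 10.6). Without control 1, 5 of 15 were called higher, among them Oat (0.29, FDR 0.000642) and Acot7 (0.53, FDR 0.000562), and 0 lower. The log2 fold change was above 0 for 10 of 15 and below 0 for 5, both with all samples and without control 1. These lists were written with earlier results of these data known, so their counts are descriptions.

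**Figure D4:**
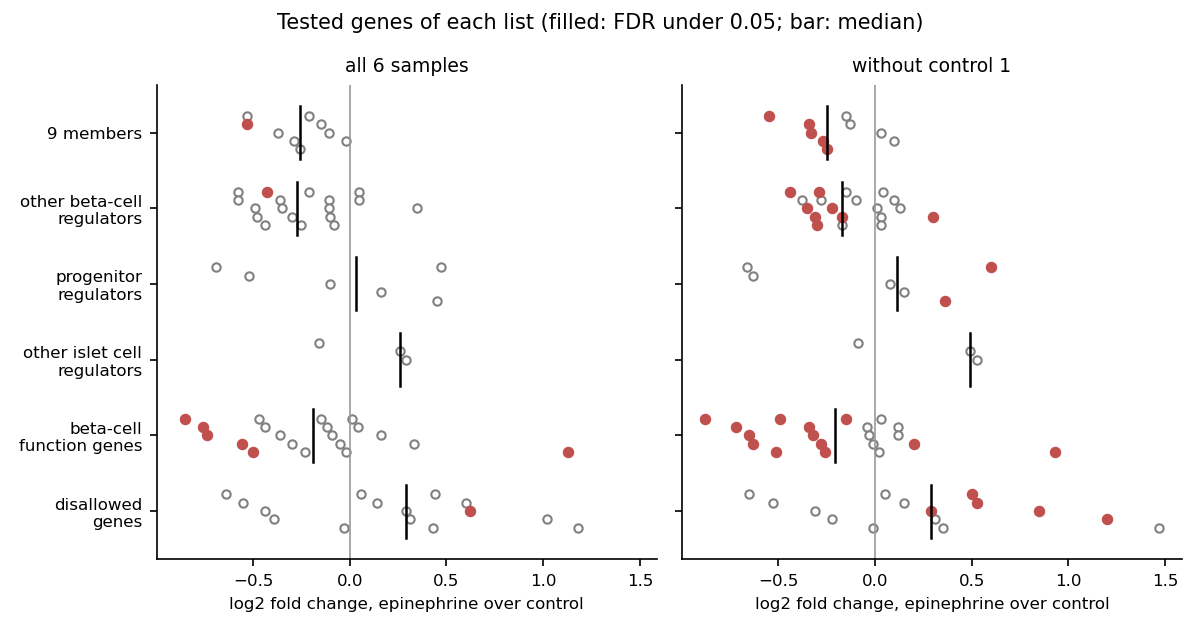
Log2 fold change of epinephrine over control (horizontal axis) for each tested gene of 6 lists, with all 6 samples (left) and without control 1 (right); filled points passed FDR under 0.05 and bars are medians. The members' median was -0.26 with all samples and -0.25 without control 1, and 1 and 5 of the 9 were called.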

How the data were processed

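The authors' deposited table gives an expected count and an FPKM value per gene and sample. The submitters' processing notes name GRCm38, and the aligner, counting tool and strand setting are not given in the sources used here. Totals were 15017065, 17457583 and 16059175 expected counts in controls 1 to 3 and 16954483, 18127171 and 15256957 in epinephrine samples 1 to 3. Of the expected counts 8.34% were not whole, and all were rounded.

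The 12747 genes kept by filterByExpr were scaled by TMM and tested with edgeR's quasi-likelihood F-test (edgeR 4.0.16 under R 4.3.3), with Benjamini-Hochberg adjustment over all genes. The standard error was taken as the size of the log2 fold change over the square root of F. FPKM was used as deposited. DESeq2 1.42.0, limma 3.58.1, other scalings and filters, a replicate block and each sample left out were alternatives, and a per-sample offset for GC content and transcript length (natural splines with 4 degrees of freedom) was added later. Of the identifiers, 22255 were found in GENCODE M21. The code was tested on simulated data.

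Named genes were the 9 members, called genes of each list (at most 6 by p), its 3 highest by FPKM, Ins1 and Ins2, and the closest patterns; marker genes, Neurog3 and Ptf1a were named after their values were seen. The members and lists were chosen with earlier results of these data known. Most genes on the lists other than the members are not reported individually.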

Additional observations from a re-analysis of the deposited data

How the results depend on the processing

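Leaving out each sample in turn gave log2 fold changes of -0.55 to -0.49 for Pax6, -0.45 to -0.27 for Pdx1, -0.67 to -0.25 for Nkx6-1, -0.34 to -0.21 for Isl1, -0.33 to -0.12 for Rfx6, -0.21 to -0.08 for Neurod1, -0.20 to 0.03 for Mafa, -0.11 to 0.10 for Foxa2 and -0.15 to 0.13 for Ins2. The number of genes called then ran from 0 to 5 members, 47 to 2798 of all genes, 0 to 8 other beta-cell regulators, 0 to 2 progenitor regulators, 1 to 13 beta-cell function genes and 0 to 5 disallowed genes, each highest without control 1. DESeq2 called 734 genes, and 39.1% of its calls were lower against 23.3% in edgeR. It called 2 members (Pdx1 at -0.38), 3 other beta-cell regulators (2 lower, 1 higher) and 4 disallowed genes (1 lower, 3 higher). With the offset for length and GC content 1329 genes were called, 47.2% of them lower, and Ins2 was -0.12. Of the members 4 were called (median of all 9 -0.33, Pdx1 -0.42, Nkx6-1 -0.48, Isl1 -0.33). Also called were 8 other beta-cell regulators (7 lower, 1 higher) and 2 progenitor regulators (1 lower, 1 higher). Function genes gave 10 calls (9 lower, 1 higher) and disallowed genes 3 (0 lower, 3 higher). The offset without control 1 called 3125 genes and 6 members (Pdx1 -0.32, Nkx6-1 -0.32, Isl1 -0.30, Rfx6 -0.28, Nkx2-2 -0.18), with Foxa2 at 0.05 and Ins2 at -0.16. This fit also called 11 other beta-cell regulators (10 lower, 1 higher) and 2 progenitor regulators (1 lower, 1 higher). Function genes gave 14 calls (11 lower, 3 higher) and disallowed genes 6 (1 lower, 5 higher). Limma on log2 FPKM with 1 or 0.1 added called 0 other beta-cell regulators and 0 disallowed genes, upper quartile scaling called 0 disallowed genes, and library size alone put Ins2 at -0.01. The cause of these moves was not tested.

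Whether same-numbered samples were paired is not given in the sources used here. Deviations of same-numbered samples from their group means correlated at 0.0502, 0.0677 and -0.0488. With 3 samples per group, and control 1 apart from the other controls, such correlations cannot settle pairing. With the replicate number as a block, 178 genes, 0 members (4 at an unadjusted p under 0.05), 0 other beta-cell regulators, 3 function genes and 0 disallowed genes were called, and Pax6 was at -0.53 with FDR 0.0526.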
